A study of Mus musculus with 12 samples.

Results

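The genes that flank Lyl1 on mouse chromosome 8 were chosen by position and level. All start within about 2 Mb of Lyl1 on build GRCm38 and reach 10 counts in at least 3 of the 12 libraries. For positions, the start is the smallest coordinate of a gene on either strand. For genes on the minus strand it is therefore the 3′ end, and a gene can reach nearer to Lyl1 than its start. Lyl1 itself and 1 other gene were left out by this rule. Of 147 genes that start in the window, 71 are members, against 15573 genes of the whole table that reach the same counts. Another 74 genes of the window stayed under the limit, 34 of them with no count in any library. Of the members, 39 start at lower and 32 at higher coordinates than Lyl1, and 65 are protein coding. Just inside the limit, the third-highest library had 10 counts for 1700067K01Rik and for Abcc12, and just outside it had 9 for Mir23a and for G430095P16Rik.

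RNA was sequenced from 3 Lyl1 knockout (KO) libraries, 3 double KO libraries, 3 Scl KO libraries and 3 wild-type (WT) libraries, labelled LYL1 KO, LYL1 SCL DKO, SCL KO and WT. Each is labelled as a pool of embryos at embryonic day 9.5, with no strain, allele or number of embryos named in the sources used here. Libraries held 24324685 to 29212443 counts. The first question was whether the neighbours of Lyl1 differ between libraries that are Lyl1-deficient by their label (Lyl1 KO and double KO) and Lyl1-intact ones (WT and Scl KO), and the second was where in the window they lie.

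Lyl1 and Scl, the product of Tal1, are kindred factors of the basic helix-loop-helix family that act in blood cells. They pair with E proteins and bind the E-box, a short motif written CANNTG, often beside a GATA site. A targeted allele is inherited with the DNA around it, and that DNA can come from another strain than the rest of the genome. Since every library labelled Lyl1-deficient should carry the Lyl1 allele, loss of Lyl1 and linked DNA cannot be told apart here.

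Levels are given as CPM, which are counts scaled so that libraries of different depth can be compared. Lyl1 (chr8:84701457-84704715) was at 90.4, 87.4 and 85.5 CPM across Lyl1 KO libraries, against 203, 192 and 149 CPM in WT. It was at 88.3, 108 and 56.5 CPM in double KO, against 210.3, 198 and 118 CPM in Scl KO, so the Lyl1-deficient and Lyl1-intact libraries do not overlap. The level that remained was 48.5% of that of WT in Lyl1 KO, which did not pass the test (log2 fold change -1.04 ± 0.24, edgeR adjusted p = 0.286), and 47.96% of that of Scl KO in double KO, which did (-1.06 ± 0.24, edgeR adjusted p = 0.0097). Lyl1 loss below therefore means the labelled state, with transcript still present. Tal1 was at 77.7 to 100.4 CPM in double KO and 93.4 to 118 CPM in Scl KO, against 513 to 643 CPM in WT. The label embryo goes against the transcripts. Of 14 markers of embryonic heart, neural tube, somites and tail bud, 3 reached 1 CPM in any library and 4 were at 0, and their sum was 0.385 to 8.67 CPM. All 12 megakaryocyte markers reached 1 CPM, with sums of 60097 to 69332 CPM in Lyl1 KO, 16039 to 32740 CPM in double KO, 41753 to 57347 CPM in Scl KO and 54902 to 62639 CPM in WT. The 8 macrophage markers summed to 4544 to 6709 CPM in Lyl1 KO and 3702 to 5975 CPM in WT, and to 2998 to 3388 CPM in double KO and 3397 to 4360.1 CPM in Scl KO. The 7 endothelial markers summed to 1143 to 1385 CPM in Lyl1 KO and 974 to 1236 CPM in WT, and to 254 to 423 CPM in double KO and 464 to 719.7 CPM in Scl KO. All markers of both lists reached 1 CPM. Megakaryocyte, macrophage and endothelial sums were thus lower in every double KO library than in any Scl KO library. The part of these sums in the results was not tested. Transcripts of Y-linked genes summed to 189 to 265 CPM in 3 libraries, Lyl1 KO 3 and double KO 1 and 2, and to at most 0.214 CPM in the other 9, so all 3 are Lyl1-deficient.

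Promoters of 5 members that changed with Lyl1 state are shown, so that their sequences can be compared with the E-box. They run from 250 bases before to 50 bases after the 5′ end of the gene, 5′ to 3′ on the gene's strand, from RefSeq on GRCm38.p6. Capitals mark CANNTG, which includes CAGATG and CAGCTG, and GATAA, searched on both strands. The first 4 belong to genes that moved in 1 direction in both comparisons of Lyl1 state, and the last to Prdx2, which moved in opposite directions.
Adgrl1, chr8:83899848-83900147, plus strand: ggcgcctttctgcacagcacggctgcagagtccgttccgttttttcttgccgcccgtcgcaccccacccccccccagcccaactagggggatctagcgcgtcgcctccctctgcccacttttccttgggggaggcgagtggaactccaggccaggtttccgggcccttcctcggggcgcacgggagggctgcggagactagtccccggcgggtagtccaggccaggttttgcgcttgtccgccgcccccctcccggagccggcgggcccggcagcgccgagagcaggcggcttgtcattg
Mri1, chr8:84257275-84257574, minus strand: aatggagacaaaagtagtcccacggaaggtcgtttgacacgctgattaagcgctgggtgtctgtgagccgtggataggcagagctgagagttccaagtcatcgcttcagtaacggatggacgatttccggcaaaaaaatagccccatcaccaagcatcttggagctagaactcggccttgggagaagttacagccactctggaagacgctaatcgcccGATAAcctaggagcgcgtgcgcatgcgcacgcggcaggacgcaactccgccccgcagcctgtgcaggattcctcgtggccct
Mast1, chr8:84937304-84937603, minus strand: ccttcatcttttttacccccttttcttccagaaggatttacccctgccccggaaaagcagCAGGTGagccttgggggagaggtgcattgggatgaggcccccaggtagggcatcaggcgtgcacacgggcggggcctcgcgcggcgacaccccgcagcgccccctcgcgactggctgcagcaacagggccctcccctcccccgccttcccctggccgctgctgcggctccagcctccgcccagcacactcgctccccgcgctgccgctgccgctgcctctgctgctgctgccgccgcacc
Phkb, chr8:85840738-85841037, plus strand: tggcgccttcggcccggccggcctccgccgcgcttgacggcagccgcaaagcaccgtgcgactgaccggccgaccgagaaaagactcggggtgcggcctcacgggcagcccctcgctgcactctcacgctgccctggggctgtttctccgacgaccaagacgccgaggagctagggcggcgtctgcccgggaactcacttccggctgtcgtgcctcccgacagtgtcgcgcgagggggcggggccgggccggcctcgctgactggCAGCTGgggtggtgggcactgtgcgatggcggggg
Prdx2, chr8:84969372-84969671, plus strand: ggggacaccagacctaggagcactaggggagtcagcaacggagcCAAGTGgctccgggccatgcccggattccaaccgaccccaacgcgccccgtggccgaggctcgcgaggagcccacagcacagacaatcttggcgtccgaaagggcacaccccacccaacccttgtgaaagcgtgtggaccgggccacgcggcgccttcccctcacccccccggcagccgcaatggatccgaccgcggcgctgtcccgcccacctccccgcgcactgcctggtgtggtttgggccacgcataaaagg
The Adgrl1 window held none of the motifs, Mri1 held 1 GATAA, Mast1 and Prdx2 each held 1 CANNTG, and Phkb held 1 CAGCTG. Of the 47 members with a promoter in the RefSeq table, 33 held CANNTG, 5 CAGATG, 9 CAGCTG and 8 GATAA. The shares among all 32851 promoters of this length were 72.3% for CANNTG, 17.2% for CAGATG, 16.3% for CAGCTG and 25.4% for GATAA. These are shares of single promoters, while a member was counted if any of its promoters held the motif.

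In Lyl1 KO against WT, 9 flanking genes changed. Adgrl1, Adgre5, Mri1, Mast1 and Rnf150 fell, and Prdx2, Phkb, Cacna1a and Gipc1 rose. A gene is called where edgeR's quasi-likelihood test gives a Benjamini-Hochberg adjusted p under 0.05 over all 15399 genes tested. Of the 71 members 69 were tested, and the 9 calls are 13.04% of them, against 0.0714% of all genes tested, which is 11 genes in the whole table. The 4 that rose compare with 0.039% of all genes called higher, and the 5 that fell with 0.0325% called lower. The median absolute log2 fold change was 0.277 over the tested members and 0.167 over all genes. At an unadjusted p under 0.05 there were 29 members, or 42.03%, against 7.99% of all genes. Of the tested members, Mast1 and 1700067K01Rik reached 10 counts in fewer than 3 Lyl1-deficient libraries, so they entered through the Lyl1-intact ones. Among the other 67 members, 8 were called. The share of all genes varied with the setting. It was 0.669% (103 genes, 13 members) with the DESeq2 Wald test, 0.201% (29 genes, 9 members) in a fit of only the 6 libraries compared and 0.258% (41 genes, 9 members) without WT 3.

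In double KO against Scl KO, in which no library is shared with the first comparison, 19 members changed. They are 27.5% of those tested, against 19.1% of all genes. Of them 6 rose, where 8.37% of all genes did, and 13 fell, where 10.8% did. Calls in both comparisons with the same sign were made for 7 members, Rnf150, Adgre5, Adgrl1, Mri1, Cacna1a, Mast1 and Phkb, which is 10.1% of the tested members against 0.0584% of all genes. Mast1 left out, these were 6 of the 67 members that pass the count limit on both sides, and the calls in double KO against Scl KO were 18 of the 67. The whole table held 9 such genes, and the others were Fbxo31, 36.8 Mb away on chromosome 8, and the pseudogene Tdpx-ps1 on chromosome 1. Calls of opposite sign were made for 1 gene of the table, Prdx2 (0.00649%). For 13 members, 18.8%, all 6 Lyl1-deficient libraries lay on 1 side of all 6 Lyl1-intact ones, against 0.708% of all genes. The Lyl1-deficient libraries were higher for 5 members (0.325% of all genes), Zfp330, Gipc1, Cc2d1a, Cacna1a and Phkb. They were lower for 8 (0.383% of all genes), Scoc, Adgre5, Adgrl1, Mri1, Nacc1, Mast1, Dhps and Wdr83os. Among the 67 members, 12 were apart in this way. Without Lyl1 KO 1, without Lyl1 KO 2 or without WT 2, the members called in Lyl1 KO against WT numbered 4, 5 and 5, and those called in both with the same sign 3, 4 and 4. Adgre5, Adgrl1, Phkb and Prdx2 kept their calls in both comparisons in all 22 other settings tried.

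**Figure D1:**
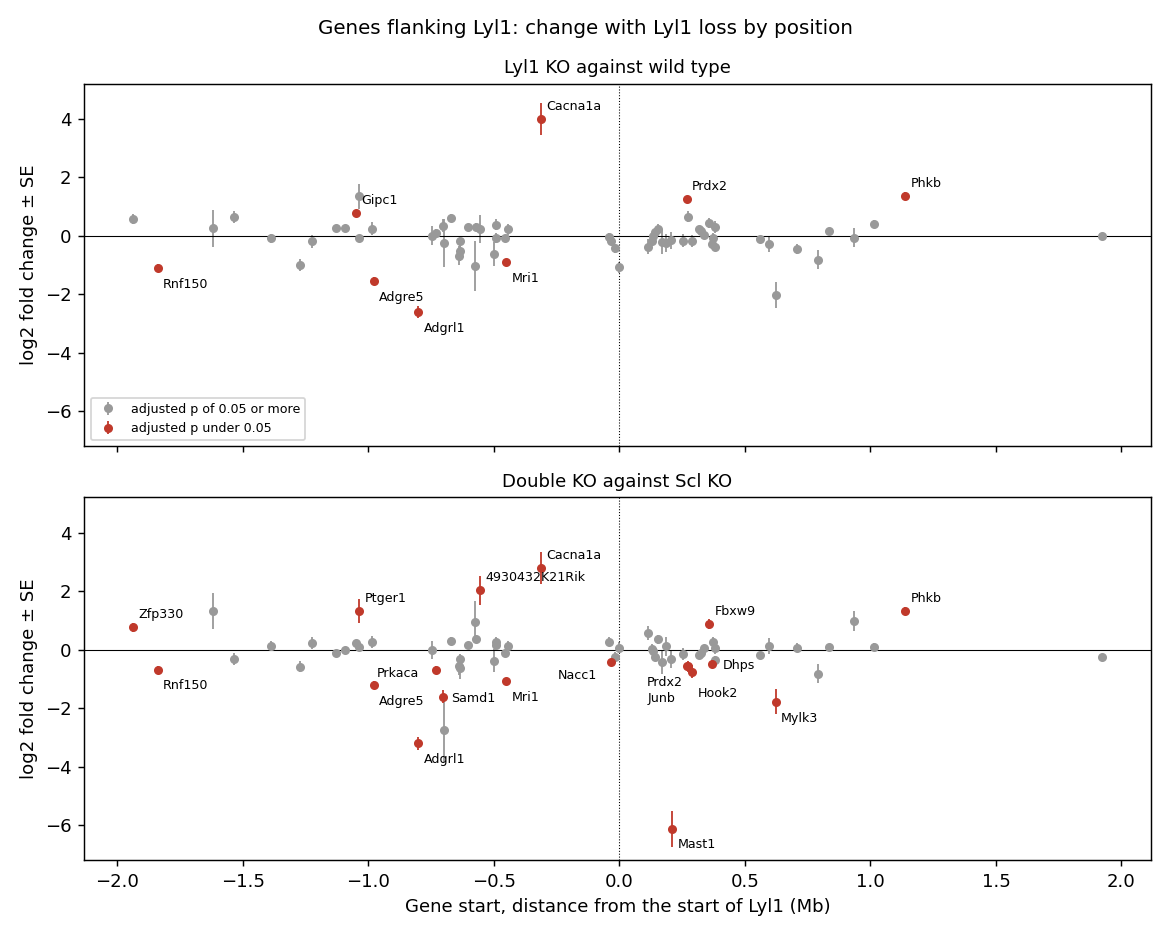
Log2 fold change with its standard error (vertical axis) against distance of the gene start from the start of Lyl1 in Mb (horizontal axis), for Lyl1 KO against WT (top) and double KO against Scl KO (bottom); red points have an adjusted p under 0.05. Called genes lie from -1.84 to 1.14 Mb in the top panel, and Mast1, with 1 count in Lyl1 KO, is not drawn there.

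Adgrl1, the adhesion receptor latrophilin 1, had the steepest fall among members with at least 1 CPM in every library. It was at 8.06, 11.4 and 12.1 CPM across Lyl1 KO libraries, against 53.4, 63.5 and 75.4 CPM in WT, a log2 fold change of -2.61 ± 0.22 (SE, n = 3 each, edgeR adjusted p = 0.000302). In double KO it was at 11.4, 7.3 and 13.2 CPM, against 91.4, 102 and 99.8 CPM in Scl KO (-3.20 ± 0.22, edgeR adjusted p = 9.14e-06). No Lyl1-deficient library was above 13.2 CPM and no Lyl1-intact one below 53.4 CPM. In bulk libraries such as these, fewer cells of a type and less RNA per cell cannot be told apart.

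Adgre5, or CD97, is an adhesion receptor of leukocytes. Its start lies at -0.98 Mb from that of Lyl1, on the same side as Adgrl1 at -0.80 Mb. It was at 128, 127 and 100.3 CPM across Lyl1 KO libraries, against 393, 335 and 311 CPM in WT (log2 fold change -1.55 ± 0.14, edgeR adjusted p = 0.000574). It was at 148, 156 and 121 CPM in double KO, against 341, 349.6 and 298 CPM in Scl KO (-1.22 ± 0.14, edgeR adjusted p = 0.000181). Both pairs of groups are apart by more than their whole spread. Its span overlaps that of the RNA helicase gene Ddx39 on the other strand by 3642 bases, and Ddx39, at 39.8 ± 5.3 CPM in Lyl1 KO and 33.7 ± 5.5 CPM in WT (SD), was not called.

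Mri1 encodes an isomerase of the methionine salvage pathway. Its levels were 19.0, 22.0 and 20.2 CPM across Lyl1 KO libraries, against 35.8, 40.7 and 36.9 CPM in WT (-0.89 ± 0.10, edgeR adjusted p = 0.00541). In double KO they were 15.9, 15.7 and 14.7 CPM, against 34.0, 34.7 and 29.7 CPM in Scl KO (-1.09 ± 0.11, edgeR adjusted p = 5.64e-05). The Lyl1-deficient libraries ranged from 14.7 to 22.0 CPM and the Lyl1-intact ones from 29.7 to 40.7 CPM. The first call was lost without Lyl1 KO 1 (edgeR adjusted p = 0.0655) and without the 3 libraries with Y-linked transcripts (0.0551).

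Phkb, a regulatory subunit of phosphorylase kinase, which activates glycogen breakdown, rose. It was at 163, 144 and 149.9 CPM across Lyl1 KO libraries, against 56.4, 60.4 and 59.5 CPM in WT (1.37 ± 0.14, edgeR adjusted p = 0.00172). It was at 195, 167 and 121 CPM in double KO, against 65.5, 65.8 and 61.3 CPM in Scl KO (1.33 ± 0.14, edgeR adjusted p = 0.000101). No Lyl1-deficient library was under 121 CPM and no Lyl1-intact one above 65.8 CPM. Itfg1, which starts next to it at lower coordinates, was at 152 ± 9.5 CPM in Lyl1 KO and 115 ± 8.5 CPM in WT (SD) and was not called (edgeR adjusted p = 0.453).

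Cacna1a, the pore-forming subunit of the P/Q-type calcium channel known from neurons, had 226, 247 and 97 counts in Lyl1 KO, against 11, 9 and 15 counts in WT. It had 75, 99 and 128 counts in double KO, against 6, 5 and 28 counts in Scl KO. The log2 fold changes were 3.996 ± 0.55 (edgeR adjusted p = 0.0177) in Lyl1 KO against WT and 2.79 ± 0.54 (0.0037) in double KO against Scl KO. The libraries separate fully, but the highest level, 9.3 CPM, stays low beside most members. In Lyl1 KO against WT the call was lost without Lyl1 KO 1, Lyl1 KO 2, WT 1 or WT 2 (edgeR adjusted p = 0.0948, 0.0988, 0.179 and 0.223) and in limma-voom (0.0882).

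Mast1, a serine/threonine kinase that associates with microtubules, was nearly absent from the Lyl1 KO and double KO libraries. It had 0, 1 and 0 counts in Lyl1 KO, against 28, 22 and 33 counts in WT. It had 0, 3 and 4 counts in double KO, against 200, 130 and 125 counts in Scl KO. After scaling for depth the Lyl1 KO level was 1.20% of that in WT (95% counting interval 0.0300 to 6.87%), and the double KO level was 1.38% of that in Scl KO (0.551 to 2.86%). It reached 10 counts in 0 of 6 Lyl1-deficient and 6 of 6 Lyl1-intact libraries, so it is a member only through the libraries in which it is high, and its fall was favoured by that choice. Both comparisons called it (edgeR adjusted p = 0.0175 for Lyl1 KO against WT and 6.9e-05 for double KO against Scl KO), which is given as a description. The first of these calls was lost without Lyl1 KO 1, 2 or 3 (edgeR adjusted p = 0.122, 0.0988 and 0.125), without WT 1 or WT 2 (0.0706 and 0.0664) and in limma-voom (0.122). Its span overlaps that of Dnase2a on the other strand by 11013 bases, and Dnase2a, a lysosomal nuclease, was at 25.7 ± 6.1 CPM in Lyl1 KO and 28.6 ± 13 CPM in WT (SD), with no call.

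Rnf150, a RING finger protein, fell with Lyl1 loss in both Scl states and was higher without Scl. It was at 77.8, 92.3 and 101 CPM across Lyl1 KO libraries, against 168, 197 and 220.3 CPM in WT (-1.11 ± 0.14, edgeR adjusted p = 0.00735). It was at 165, 198 and 214 CPM in double KO, against 308, 325 and 293 CPM in Scl KO (-0.68 ± 0.13, edgeR adjusted p = 0.00423). The double KO libraries overlapped the WT libraries, and both groups lay above every Lyl1 KO library and below every Scl KO library. The call in Lyl1 KO against WT was lost without Lyl1 KO 1, Lyl1 KO 2 or WT 2 (edgeR adjusted p = 0.0856, 0.0646 and 0.0686), and that in double KO against Scl KO without the 3 libraries with Y-linked transcripts (0.0784).

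**Figure D2:**
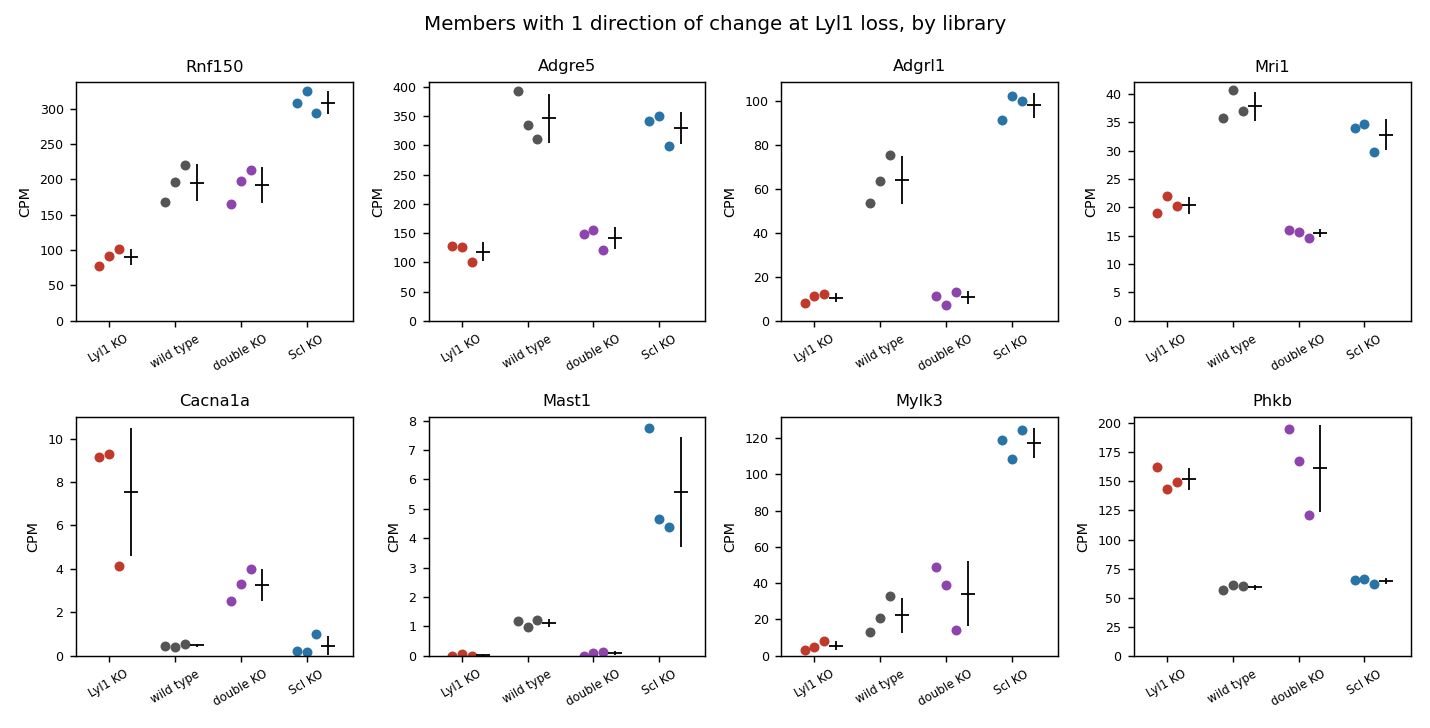
CPM (vertical axes, from 0) of 8 members in each library, with the 3 points of a group side by side and the mean ± SD of the group to their right in black. Adgrl1, Adgre5, Mri1 and Mast1 are lower in both Lyl1-deficient groups, Phkb and Cacna1a are higher, and Rnf150 and Mylk3 are lowest in Lyl1 KO and highest in Scl KO, with WT and double KO between.

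By its labels Scl KO against WT does not differ in Lyl1 state, and 3 members changed there, 4.35% of those tested against 5.03% of all genes. All rose, as did 2.29% of all genes, while 2.73% of all genes and 0 members fell. With the replicate number as a block 4 members and 7.96% of all genes were called. The log2 fold change was 0.66 ± 0.13 for Rnf150 (edgeR adjusted p = 0.0147), 2.32 ± 0.47 for Mast1 (0.014) and 2.40 ± 0.44 for Mylk3 (0.00758), a myosin light chain kinase best known from heart muscle. These libraries also stand in the comparisons of Lyl1 state, WT in one and Scl KO in the other. Mylk3 was at 3.32, 5.01 and 8.04 CPM across Lyl1 KO libraries, against 13.1, 20.6 and 32.7 CPM in WT, which did not pass the test (-2.02 ± 0.46, edgeR adjusted p = 0.286). It was at 49.1, 39.0 and 14.3 CPM in double KO, against 119, 109 and 125 CPM in Scl KO, and fell (-1.78 ± 0.43, edgeR adjusted p = 0.0129). With no filter on low counts its calls were lost in double KO against Scl KO (0.0647) and in Scl KO against WT (0.0514). Without WT 1 or without WT 2 only 1 member, Mylk3, kept its call in Scl KO against WT. There Rnf150 had adjusted p-values of 0.0670 and 0.0738 and Mast1 of 0.0551 and 0.0747 without these libraries. Rnf150 also lost that call without Scl KO 2 (0.0620), and Mast1 without Scl KO 1 (0.0841). In double KO against Lyl1 KO, 25 members changed, which is 36.2% against 35.2% of all genes. Of them 8 rose and 17 fell, against 17.4% and 17.9% of all genes.

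**Figure D3:**
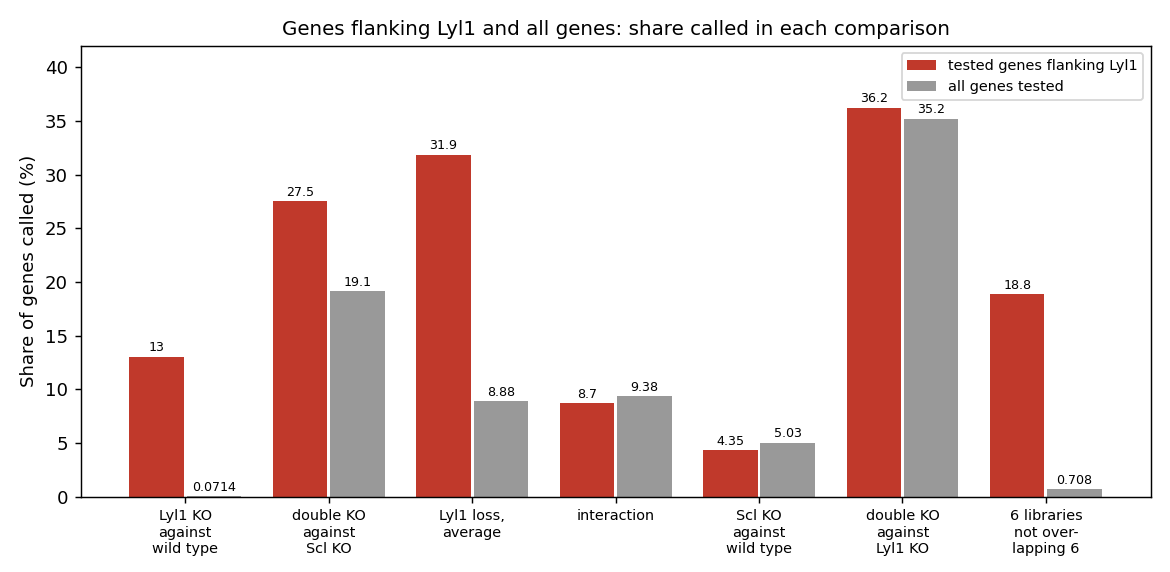
Share of genes called in percent (vertical axis, from 0) for the 69 tested flanking genes (red) and all 15399 genes tested (grey), in 6 comparisons and for libraries that do not overlap between the Lyl1 states. The flanking genes lie above all genes in Lyl1 KO against WT (13.04% against 0.0714%) and averaged over both Scl states (31.9% against 8.88%), and near them in Scl KO against WT (4.35% against 5.03%).

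By position, the calls in Lyl1 KO against WT did not crowd at Lyl1. The nearest called genes start at -0.31 Mb (Cacna1a) and 0.21 Mb (Mast1), and the farthest are Rnf150 at -1.84 Mb and Phkb at 1.14 Mb. Calls were made for 1 of 13 members within 0.25 Mb, 3 of 18 at 0.25 to 0.5 Mb, 2 of 23 at 0.5 to 1 Mb and 3 of 15 beyond 1 Mb. They were 6 of 38 at lower coordinates and 3 of 31 at higher ones. The call within 0.25 Mb, also 1 of the 3 at higher coordinates, is Mast1, a member only through the libraries in which it is high. With Mast1 left out, no member within 0.25 Mb was called, and the nearest called gene at higher coordinates is Prdx2 at 0.27 Mb. Among the 24 tested genes beyond the members out to 5 Mb there were 0 calls with edgeR, and 0 among the 52 at 5 to 10 Mb. Among the other 755 tested genes of chromosome 8 there was 1 call, and among 14573 on other chromosomes 1. The median absolute log2 fold change of the 24 was 0.245, against 0.277 over members and 0.167 over all genes. In double KO against Scl KO 8 of the 24 were called (33.3%) and 9 of the 52 (17.3%). There 27.5% of members and 19.1% of all genes were called. The average over both Scl states called 6 of the 24 (25%) and 5 of the 52 (9.62%), against 31.9% of members and 8.88% of all genes. Around Tal1 on chromosome 4, which is disrupted in the Scl KO, 40 genes within 2 Mb were tested. In Scl KO against WT 3 of them were called, or 7.5% against 5.03% of all genes. All fell, as did 2.73% of all genes: Pdzk1ip1, Cyp4b1-ps2 and Urod, named after their values were seen. In double KO against Lyl1 KO 13 of the 40 were called, or 32.5% against 35.2% of all genes. Of them 4 rose and 9 fell, against 17.4% and 17.9% of all genes.

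The members closest to Lyl1 were among those with no call in Lyl1 KO against WT. Of the 5 on each side 9 were tested, all within 156 kb, and their lowest edgeR adjusted p was 0.127. That belongs to Nfix, a nuclear factor I transcription factor whose span covers all 3259 bases of Lyl1 on the other strand. Nfix was at 2.79, 2.56 and 2.17 CPM across Lyl1 KO libraries, against 4.41, 5.66 and 5.87 CPM in WT, and at 3.45, 3.42 and 3.87 CPM in double KO, against 3.17, 3.75 and 3.36 CPM in Scl KO. Its Lyl1 KO libraries lie below all the others. Trmt1, a tRNA methyltransferase, was at 17.7 ± 0.76 CPM in Lyl1 KO and 23.7 ± 4.8 CPM in WT (SD). The immediate-early gene Ier2 was at 34.5 ± 4.8 CPM in Lyl1 KO and 35.6 ± 4.5 CPM in WT. Dand5, a secreted antagonist of Nodal, Gadd45gip1, a mitochondrial ribosome protein, Calr, the chaperone calreticulin, and Farsa, a phenylalanyl-tRNA synthetase subunit, had adjusted p-values from 0.701 to 0.86. Nacc1, a BTB-domain repressor, was the one called in double KO against Scl KO. It was at 85.1, 74.0 and 92.8 CPM in double KO, against 118, 116 and 108 CPM in Scl KO (-0.44 ± 0.09, edgeR adjusted p = 0.0053). In a fit of only the 6 libraries compared this call of Nacc1 was lost (edgeR adjusted p = 0.0571). The first and last members by position, Zfp330 and the peroxisomal protease gene Lonp2, had log2 fold changes of 0.58 ± 0.16 and -0.01 ± 0.10 in Lyl1 KO against WT (edgeR adjusted p = 0.435 and 0.987).

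Across the 69 tested members, the log2 fold changes of Lyl1 KO against WT and of double KO against Scl KO had the same sign for 45, or 65.2%, against 50.2% of all genes. Their Pearson correlation over members was 0.80 and the Spearman correlation 0.52. Over all genes the Pearson correlation was 0.26 and the Spearman correlation 0.04. Without Mast1 and 1700067K01Rik, over the 67 members that pass the count limit on both sides, the Pearson correlation was 0.70 and the Spearman correlation 0.49. Among the 49 members called in neither comparison, 29 had the same sign. Their Pearson correlation was 0.22, near that of all genes, and their Spearman correlation was 0.38, above that of all genes. Genes are not independent replicates, and each comparison uses the same 3 libraries of each group for every gene.

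**Figure D4:**
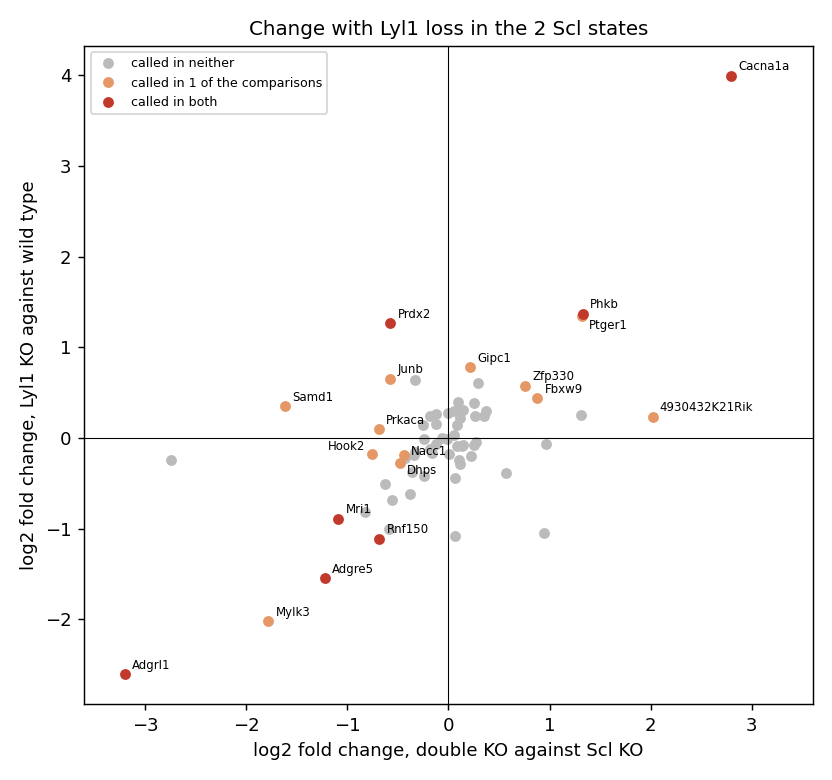
Log2 fold change of each tested member in Lyl1 KO against WT (vertical axis) and in double KO against Scl KO (horizontal axis), coloured by the number of comparisons that call it. Adgrl1, Adgre5, Mri1 and Rnf150 lie low in both, Phkb and Cacna1a high in both, and Prdx2 at 1.26 and -0.57; Mast1 is not drawn.

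In 6 members, 8.70% of those tested against 9.38% of all genes, the change with Lyl1 loss differed between the Scl states by the interaction term of the fit. The difference was negative for 5 (5.86% of all genes) and positive for 1, Nfix (3.51% of all genes). Prdx2, a peroxiredoxin abundant in red cells, had the smallest p. It was at 159.9, 156 and 158 CPM across Lyl1 KO libraries, against 65.9, 63.7 and 67.6 CPM in WT (1.26 ± 0.08, edgeR adjusted p = 2.65e-05). It was at 45.3, 45.5 and 40.1 CPM in double KO, against 63.6, 62.0 and 69.3 CPM in Scl KO (-0.57 ± 0.08, edgeR adjusted p = 0.00067). Lyl1 KO lies far above and double KO below the 2 Lyl1-intact groups, which overlap. Summed erythroid markers, of which 7 of 10 reached 1 CPM and none was at 0, were at 1192 to 1628 CPM across Lyl1 KO libraries, against 583 to 686 CPM in WT, and at 47.2 to 353 CPM in double KO, against 323 to 843 CPM in Scl KO. Their part in the change of Prdx2 was not tested. Klf1, an erythroid transcription factor in the window, had 0, 0 and 2 counts in Lyl1 KO, against 2, 0 and 4 in WT, and 4, 12 and 2 in double KO, against 0, 1 and 1 in Scl KO, and is no member. The pseudogene Tdpx-ps1 bears an older name of thioredoxin peroxidases, so it may share sequence with Prdx2, which was not checked. Counting of reads mapped to several places was not switched on. Reads that map to both would then be missing from both, and both levels are uncertain in that respect. Tdpx-ps1 was at 25.3, 28.4 and 28.7 CPM across Lyl1 KO libraries, against 4.41, 2.66 and 3.46 CPM in WT (2.96 ± 0.19, edgeR adjusted p = 2.7e-05). It was at 8.31, 7.97 and 7.05 CPM in double KO, against 3.09, 3.42 and 3.85 CPM in Scl KO (1.17 ± 0.18, edgeR adjusted p = 0.00107), so it rose there too, where Prdx2 fell.

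Junb, an AP-1 transcription factor, shares 351 bases of its span with Prdx2 on the other strand. It was at 274, 311 and 291 CPM across Lyl1 KO libraries, against 192, 151 and 213 CPM in WT, which did not pass the test (0.66 ± 0.19, edgeR adjusted p = 0.435). It was at 109, 88.8 and 151 CPM in double KO, against 167, 154 and 198 CPM in Scl KO (-0.57 ± 0.19, edgeR adjusted p = 0.0498). Without any 1 library other than double KO 3 the second call was lost (edgeR adjusted p from 0.0526 to 0.184 over those 11 fits). Samd1, a chromatin protein that binds CpG islands, was at 33.7, 28.5 and 23.2 CPM across Lyl1 KO libraries, against 26.0, 22.2 and 18.8 CPM in WT, with overlapping ranges (0.35 ± 0.21, edgeR adjusted p = 0.711). It fell to 10.5, 6.08 and 7.8 CPM in double KO, against 27.0, 27.4 and 20.3 CPM in Scl KO (-1.61 ± 0.22, edgeR adjusted p = 0.000488). Its neighbour Prkaca, a catalytic subunit of protein kinase A, was at 155 ± 14 CPM in Lyl1 KO and 145 ± 7.1 CPM in WT (SD). It fell to 97.0, 75.6 and 80.2 CPM in double KO, against 153, 142 and 111 CPM in Scl KO (-0.68 ± 0.13, edgeR adjusted p = 0.00372).

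Gipc1, a PDZ adaptor of receptor traffic, rose to 256, 251 and 250.5 CPM across Lyl1 KO libraries, against 139, 140.3 and 162 CPM in WT (0.78 ± 0.10, edgeR adjusted p = 0.0146). It was at 235, 189.9 and 189 CPM in double KO, against 179, 178 and 171 CPM in Scl KO, which did not pass the test (0.22 ± 0.10, edgeR adjusted p = 0.168). Every Lyl1-deficient library still lay above every Lyl1-intact one. The call in Lyl1 KO against WT was lost without Lyl1 KO 1, 2 or 3 (edgeR adjusted p = 0.0856, 0.0646 and 0.0682) and without WT 1 or WT 2 (0.106 and 0.122). The number of members with a called difference between the Scl states was 3 without Scl KO 1, Scl KO 2 or WT 2.

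**Figure D5:**
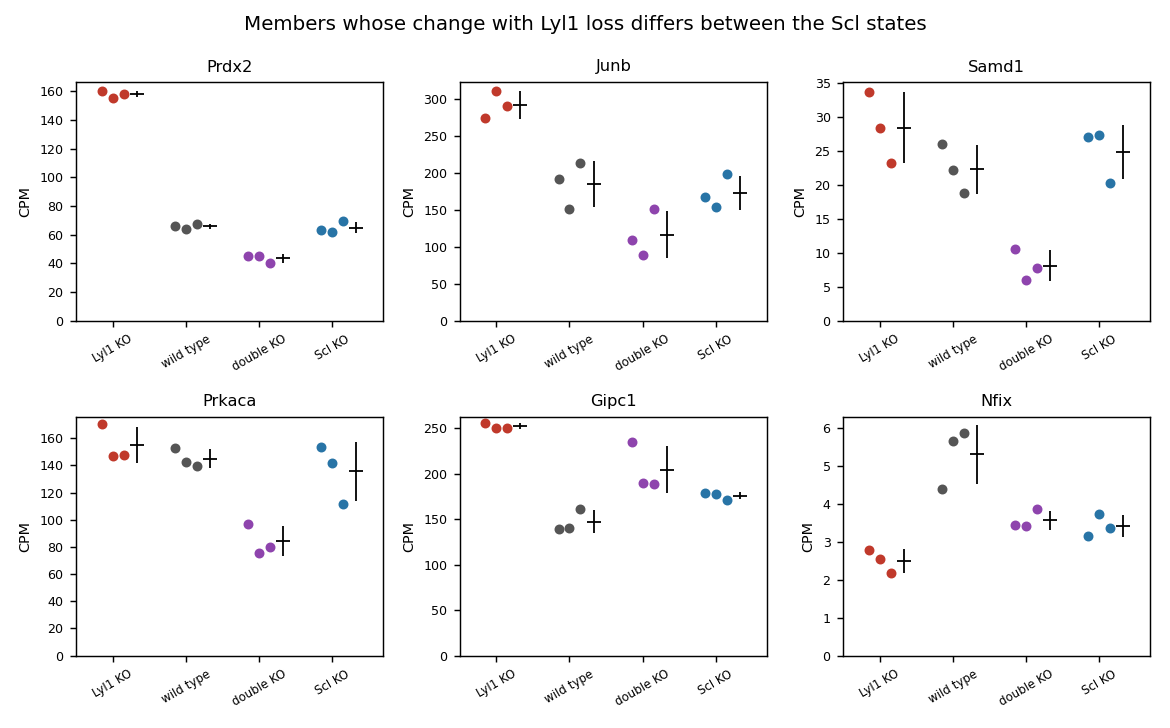
CPM (vertical axes, from 0) in each library of the 6 members with a called difference between the Scl states, with the mean ± SD of each group in black. Prdx2, at 158 ± 2.2 CPM in Lyl1 KO and 43.6 ± 3.1 CPM in double KO, stands on opposite sides of the Lyl1-intact groups, and Nfix is lowest in Lyl1 KO.

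The roles cover 58 of the 71 members, in 8 classes of 4 to 12 tested genes. Among all genes 0.0714% were called in Lyl1 KO against WT, and 8.37% rose and 10.8% fell in double KO against Scl KO. Of 9 tested receptors, channels and ligands, 1 rose and 2 fell in Lyl1 KO against WT, and 2 rose and 2 fell in double KO against Scl KO. The added one, the prostaglandin E2 receptor gene Ptger1, was at 2.81, 3.88 and 2.37 CPM in double KO, against 1.66, 0.678 and 1.29 CPM in Scl KO (1.32 ± 0.42, edgeR adjusted p = 0.0454). With the replicate number as a block this p was 0.0526, and it was 0.05004 to 0.166 without any 1 of 9 libraries, which are double KO 1 and 2, Lyl1 KO 3, Scl KO 1, 2 and 3 and WT 1, 2 and 3. Of 5 kinase genes, 1 rose and 1 fell in Lyl1 KO against WT, and 1 rose and 3 fell in double KO against Scl KO. Mast1, a member only through the libraries in which it is high, is the kinase gene that fell in the first comparison and 1 of the 3 in the second. Of 4 ubiquitin ligase genes, Rnf150 fell in both, and Fbxw9, an F-box protein, rose to 12.02, 11.1 and 9.92 CPM in double KO, against 6.69, 6.06 and 5.21 CPM in Scl KO (0.88 ± 0.16, edgeR adjusted p = 0.00317). Of 6 metabolic enzymes 1 rose and 1 fell in Lyl1 KO against WT, and 2 fell in double KO against Scl KO.

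Of 12 genes of transcription, chromatin and DNA maintenance, 0 were called in Lyl1 KO against WT, where 0.0714% of all genes were. In double KO against Scl KO 1 rose and 3 fell, against 8.37% and 10.8% of all genes. The one that rose, the zinc finger gene Zfp330, was at 22.7, 22.5 and 29.5 CPM in double KO, against 12.1, 15.7 and 16.4 CPM in Scl KO (0.76 ± 0.16, edgeR adjusted p = 0.00575). Of 8 genes of RNA metabolism and translation, 1 fell in double KO against Scl KO and 0 were called in Lyl1 KO against WT. It was Dhps, deoxyhypusine synthase, which modifies a translation factor, at 12.9, 13.6 and 13.3 CPM in double KO, against 19.1, 18.2 and 18.2 CPM in Scl KO (-0.48 ± 0.10, edgeR adjusted p = 0.00667). Of 6 traffic and cytoskeleton genes, Gipc1 rose in Lyl1 KO against WT, and Hook2, a microtubule-linked adaptor, fell in double KO against Scl KO (-0.76 ± 0.22, edgeR adjusted p = 0.0291). Without double KO 1 or 2, or Scl KO 1 or 2, the call of Hook2 was lost (edgeR adjusted p = 0.0690, 0.0915, 0.0984 and 0.0927). Of 7 genes of protein folding and the secretory pathway, with Calr, the cochaperone genes Dnajb1 and Dnaja2 and Dnase2a among them, 0 were called in either comparison. Outside the roles, 4930432K21Rik rose in double KO against Scl KO (2.02 ± 0.51, edgeR adjusted p = 0.0163), and lost this call without double KO 1 (0.0514) or Scl KO 2 (0.0760). Leaving out the 3 libraries with Y-linked transcripts leaves 1 double KO library. Fewer members, and fewer of all genes, were then called in double KO against Scl KO. The members that lost this call were Rnf150, Nacc1, Fbxw9, Dhps, Hook2, Ptger1, Junb and 4930432K21Rik. Their log2 fold changes without these libraries were -0.53 for Rnf150, -0.30 for Nacc1, 0.72 for Fbxw9, -0.48 for Dhps, -0.62 for Hook2, 0.97 for Ptger1, -0.20 for Junb and 1.19 for 4930432K21Rik. The value of Dhps was the same to 2 decimals as with all libraries, and those of Junb and 4930432K21Rik were smaller by more than 1.5 times.

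Averaged over both Scl states, Lyl1 loss changed 22 members, which is 31.9% of those tested against 8.88% of all genes. Of them 9 rose, where 3.51% of all genes did, and 13 fell, where 5.36% did. For some of them the average joins unlike changes, in Lyl1 KO against WT and in double KO against Scl KO. The log2 fold changes were 1.26 and -0.57 for Prdx2, 0.35 and -1.61 for Samd1, -1.08 and 0.06 for Nfix and 0.78 and 0.22 for Gipc1. Each of these had a called difference between the Scl states. Among the 67 members that pass the count limit on both sides 21 were called. Of the 22, 6 had no call in either single comparison. Scoc, a coiled-coil protein of the Golgi, was at 3.40, 4.41 and 4.17 CPM across Lyl1 KO libraries, against 6.37, 9.46 and 8.17 CPM in WT, and at 4.19, 4.78 and 5.77 CPM in double KO, against 6.89, 6.92 and 8.29 CPM in Scl KO (average -0.79 ± 0.14, edgeR adjusted p = 0.00662, and 0.0618 without the 3 libraries with Y-linked transcripts). Il27ra, a receptor chain for interleukin 27, was at 31.9 ± 2.0 CPM in Lyl1 KO and 20.8 ± 1.9 CPM in WT, and at 20.3 ± 1.9 CPM in double KO and 16.5 ± 1.7 CPM in Scl KO (SD; average 0.45 ± 0.08, edgeR adjusted p = 0.00858). The others were Cc2d1a, a signalling scaffold (0.34 ± 0.09, edgeR adjusted p = 0.0378), Wdr83os, a membrane protein of the endoplasmic reticulum (-0.37 ± 0.10, 0.0441), and Gpt2, the mitochondrial alanine aminotransferase (-0.82 ± 0.23, 0.0465). Nfix was the last of the 6 and fell on average (-0.51 ± 0.14, edgeR adjusted p = 0.0408). Cc2d1a lost its call without any 1 library other than double KO 1, Scl KO 3 and WT 1, 2 and 3 (highest edgeR adjusted p 0.1002). Wdr83os and Gpt2 lost theirs without any 1 library other than double KO 3 and WT 3 (highest 0.129 and 0.112). Nfix lost it without any 1 library other than double KO 3, Scl KO 3 and WT 1 (highest 0.122). Of members also called in a single comparison, Samd1 lost its averaged call in 7 of the fits with 1 library left out, and Ptger1 in 4. With Y-linked transcripts as a term of the fit the edgeR adjusted p of Cc2d1a, Wdr83os, Gpt2 and Nfix was 0.125, 0.236, 0.226 and 0.211. The averaged calls of Samd1, Nacc1, Ptger1 and Dhps were lost with that term too (edgeR adjusted p = 0.137, 0.0917, 0.0735 and 0.0590). The count of 22 was 14 with that term. It was also lower without the 3 libraries that hold Y-linked transcripts, which leaves 1 double KO library.

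Levels per kb of exon differed widely between members. Calr was highest at 335 CPM per kb over all libraries, followed by Gipc1 at 113, Junb at 83.4 and Trir at 80.4 CPM per kb, and the median member was at 6.16 CPM per kb. Calr was at 1049, 1157 and 1138 CPM across Lyl1 KO libraries, against 927, 951 and 1144 CPM in WT, and at 826, 680.2 and 867 CPM in double KO, against 879, 947 and 999 CPM in Scl KO. The lowest member was Abcc12, an ABC transporter gene, with 10, 13 and 9 counts in Lyl1 KO, against 10, 4 and 8 counts in WT, and 0, 3 and 0 counts in double KO, against 3, 1 and 0 counts in Scl KO. It and the noncoding Gm26664 were too low to be tested. A mean of at least 1 CPM was reached by 65 members.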

How the data were processed

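Per the labels' protocols, a stranded mRNA kit was used on total RNA for the 12 libraries, 3 in each of 4 genotype groups. The deposited file holds raw read counts for 49671 genes. Per the file headers, the authors counted with featureCounts of Subread 1.5.2 on the reverse strand with Ensembl release 87 gene models, and counting of reads mapped to several places was not switched on. The submitters' processing notes name the aligner STAR 2.5.2b, the build GRCm38 and limma. An Ensembl identifier gave a symbol for 49326 genes. The labels do not say that replicates are separate litters, and p-values then reflect only how far these samples spread, which may be technical. The table had 0 unused columns of sample values.

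Tests used edgeR 4.0.16 in R 4.3.3 with its default filter on low counts (a minimum of 10 and a total of 15), TMM scaling, and the robust quasi-likelihood F-test with Benjamini-Hochberg adjustment in 1 fit of all 12 libraries. The SE of a log2 fold change is its absolute value divided by the square root of F. It therefore rests on the spread estimated in the fit of all 12 libraries, not only on the groups compared. Scaling factors were 0.846 to 0.956 in Lyl1 KO and WT, 0.950 to 1.08 in Scl KO and 1.14 to 1.30 in double KO. The contrasts were Lyl1 KO minus WT, double KO minus Scl KO, their average and their difference (the interaction), Scl KO minus WT and double KO minus Lyl1 KO. A count of 0 allows up to 3 counts, or 0.0936 to 0.131 CPM, and intervals cover counting error only. The interval of Mast1 is an exact binomial one on summed counts, scaled for depth. The members, role lists, markers and tests were chosen with earlier results of these data known. Genes are named where they are called in a comparison of Lyl1 state, are among the 5 nearest members on each side or the first or last one, or have the smallest p of their role list, and Lyl1, Tal1 and Klf1 are named always. A few members that meet these conditions are left unreported. Alternatives were DESeq2 1.42.0, limma-voom (limma 3.58.1), DESeq2 size factors, other filters, a replicate block, each library left out, the libraries with Y-linked transcripts left out or modelled, fits of the 6 libraries compared and a window of 1 Mb.

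Whether equal replicate numbers pair libraries was checked by correlating their deviations from the group means over genes. For replicates 1, 2 and 3 the correlations were 0.62, 0.22 and 0.67 between double KO and Scl KO, and 0.17, 0.53 and 0.53 between Scl KO and WT. All are above 0.1, so pairing is possible there. They were 0.41, -0.54 and 0.38 between Lyl1 KO and WT and 0.34, -0.21 and -0.08 between double KO and Lyl1 KO, so equal numbers did not deviate together throughout. With 3 replicates this does not settle whether libraries are paired. The values reported come from the fit with no block and take no pairing into account. For double KO against Scl KO and Scl KO against WT, the blocked value stands beside a result where it ends a call or moves a count by over 1.5 times.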

Additional observations from a re-analysis of the deposited data

Results flagged for a closer look

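For 6 members, 8.70% of those tested against 9.38% of all genes, the log2 fold change with Lyl1 loss differed between the Scl states by the interaction term of the fit, which is the change in double KO against Scl KO minus the change in Lyl1 KO against WT. The difference was -1.84 ± 0.12 for Prdx2 (edgeR adjusted p = 3.66e-05) and -1.96 ± 0.30 for Samd1 (0.0029), and neither lost its call in any other setting. It was -1.23 ± 0.26 for Junb (0.0149), which lost the call without the 3 libraries with Y-linked transcripts (0.0849). It was 1.15 ± 0.28 for Nfix (0.0245), which lost the call without Lyl1 KO 2 or 3, Scl KO 1 or 2, or WT 2 or 3 (0.0520 to 0.0758). It was -0.78 ± 0.19 for Prkaca (0.0240), with the call lost without double KO 2, Lyl1 KO 1, Scl KO 1 or 2, or WT 2 (0.0505 to 0.0678). It was -0.56 ± 0.15 for Gipc1 (0.0341), with the call lost without double KO 2, Lyl1 KO 1, 2 or 3, Scl KO 1 or 2, or WT 1 or 2 (0.0570 to 0.0931).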

How the results depend on the processing

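With 1 library left out, the members called numbered 4 to 9 in Lyl1 KO against WT, 15 to 22 in double KO against Scl KO, 16 to 23 on average, 3 to 8 for the interaction, 1 to 4 in Scl KO against WT and 18 to 28 in double KO against Lyl1 KO, and 3 to 7 were called with 1 sign in both comparisons of Lyl1 state. Members whose 6 Lyl1-deficient and 6 Lyl1-intact libraries do not overlap numbered 13 to 15. Without the 3 libraries with Y-linked transcripts, which leaves 1 double KO library assumed to vary like the other groups, the counts were 11 in double KO against Scl KO, 12 on average and 13 in double KO against Lyl1 KO, from fewer samples. With Y-linked transcripts as a term 14 were called on average. The DESeq2 Wald test called 5 in Scl KO against WT. In a fit of only the 6 libraries compared, 14 members were called in double KO against Scl KO, against 11.9% of all genes. Nacc1, Dhps, Hook2, Ptger1 and Junb lost their calls there (edgeR adjusted p = 0.0571, 0.0525, 0.0707, 0.0692 and 0.132). Over all genes, calls in Lyl1 KO against WT numbered 11, but 103 with the DESeq2 Wald test, 29 in the 6 libraries alone, 18 without the 3 libraries with Y-linked transcripts and 5 to 41 with 1 library left out. In double KO against Scl KO they numbered 2947, and 1742 in the 6 libraries alone. On average they numbered 1367, but 2225 with DESeq2, 2131 with the replicate block and 709 with the Y-linked term. For the interaction they numbered 1444, and 2262 with DESeq2. In Scl KO against WT they numbered 774, but 1329 with DESeq2 and 1226 with the replicate block. In double KO against Lyl1 KO they numbered 5422, and fewer without the 3 libraries with Y-linked transcripts. With 1 library left out the lowest counts over all genes were 1645 in double KO against Scl KO, 566 on average, 671 for the interaction and 388 in Scl KO against WT. With a replicate block the counts were 9 in Lyl1 KO against WT, 21 in double KO against Scl KO, 25 on average, 8 for the interaction, 4 in Scl KO against WT, 27 in double KO against Lyl1 KO and 7 with 1 sign in both, and the block ended the call of Ptger1 in double KO against Scl KO and of no other named member. For changes of named genes that were called in the main fit, 1266 values came from 22 settings. Of these 1096 kept direction and call, 170 kept direction and lost the call, and 0 reversed. Since the settings reuse most of the same counts, reversals of called changes were unlikely from the start. Members near 10 counts, such as Abcc12, are limited by depth.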
